A study of Homo sapiens with 12 samples.

Results

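MALAT1, the long form of NEAT1, RN7SK, RMRP, RPPH1 and TERC are human RNAs whose mature ends are not made by the usual cleavage and polyadenylation step. Their genes were looked for by symbol, through the Ensembl identifiers, among the 26058 genes of an expression table. The table came from HEK293 cells, a human embryonic kidney line. Of the 6 symbols, 2 matched a row: NEAT1 (ENSG00000245532) and MALAT1 (ENSG00000251562). RN7SK, RMRP, RPPH1 and TERC matched no row of the table and were not analysed here.

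Total RNA was ribo-depleted and sequenced from wild-type cells (WT) and from cells in which both genes of the catalytic AMPK subunits, PRKAA1 and PRKAA2, had been targeted with CRISPR (AMPK KO). All cells were kept for 24 h in medium with little serum. A first group of each line (WT DMSO, AMPK KO DMSO) then received the solvent DMSO (0.025%) and no growth factor, for 20 min by the treatment protocol and for 50 min by the sample labels. A second group (DMSO+EGF) received DMSO for 20 min and then epidermal growth factor (EGF) for 30 min. The remaining group (cordycepin+EGF) received 25 µM cordycepin, an adenosine analogue without a 3′ hydroxyl group, for 20 min and then EGF for 30 min. EGF was given at 15, stated in nM in some places and in µM in others. Each of the 6 groups held 2 libraries, numbered replicates 2 and 3, after the authors had set replicate 1 aside as an outlier. Both lines were received as a gift, and whether the AMPK KO line is a single clone was not given in the sources used here, so the knockout and any other difference between the lines cannot be told apart. The study calls the libraries biological replicates, but the labels do not say whether they were separate cultures, and p-values then measure the spread between these libraries only.

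Most transcripts of RNA polymerase II end in a poly(A) tail, which poly(A) polymerase adds after the transcript is cut. MALAT1 and the long form of NEAT1 are instead cut by RNase P upstream of a tRNA-like small RNA, and the new 3′ end is protected by a triple helix of U-rich stretches folded around an A-rich tail. MALAT1 resides in nuclear speckles, and the long NEAT1 is the scaffold of paraspeckles, while the short NEAT1 shares the same 5′ region and carries a poly(A) tail. RN7SK holds the elongation factor P-TEFb inactive, RMRP and RPPH1 are the RNA subunits of RNase MRP and RNase P, and TERC is the template of telomerase. Cordycepin, as its triphosphate, can end a growing poly(A) tail, so RNAs that need none are a natural comparison for it.

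The 3′ ends are shown because they set MALAT1 and the long form of NEAT1 apart from tailed transcripts. Each line gives the 100 bases that end where the annotated tRNA-like RNA begins, on the + strand of hg38 (GRCh38), at chr11:65506017-65506116 for MALAT1 and chr11:65445441-65445540 for NEAT1. Capitals mark U-rich motifs (TTTTTCTTTT or TTTTGCTTTT, written as DNA) and the longest run of A.
MALAT1: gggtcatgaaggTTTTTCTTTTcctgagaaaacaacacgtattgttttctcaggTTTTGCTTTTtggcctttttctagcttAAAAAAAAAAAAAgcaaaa
NEAT1: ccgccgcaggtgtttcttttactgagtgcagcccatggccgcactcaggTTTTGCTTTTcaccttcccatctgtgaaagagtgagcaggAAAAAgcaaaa
MALAT1 held 2 of these U-rich motifs and an A run of 13 bases, and NEAT1 held 1 motif and an A run of 5 bases. Only exact matches were marked, so other U-rich stretches, such as tttctttt in NEAT1, stay in lower case and were not counted. On the other strand TTTTGCTTTT also matched in both, where the A run meets the final gcaaaa, and that match overlaps the A run. Neither stretch contained AATAAA or ATTAAA, the hexamers of the poly(A) signal, on either strand. Among the last 100 annotated bases of 18811 lncRNA genes, 0.43% held either U-rich motif on the transcribed strand and 0.89% on the other strand, whereas 50.08% held a poly(A) signal hexamer on the transcribed strand. An A run of at least 5 bases was present in 31.91% of them. The U-rich motifs named are those found in the MALAT1 and NEAT1 stretches, so these shares are no test of how rare they are. The MALAT1 stretch also ends before the annotated end of its gene (65508073), whereas the lncRNA shares are from annotated ends. A match is a description of letters and not of a working element.

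The small RNAs that follow each cleavage site are shown for the same reason. The first lies at chr11:65506117-65506173 (57 bases, ENSG00000274072) and the second at chr11:65445541-65445598 (58 bases, ENSG00000275948), both on the + strand of hg38. Neither identifier matched a row of the table.
MALAT1 downstream small RNA: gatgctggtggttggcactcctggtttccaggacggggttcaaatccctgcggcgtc
NEAT1 downstream small RNA: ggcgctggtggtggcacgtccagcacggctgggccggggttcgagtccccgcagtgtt

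Values were RPKM, the number of reads on a gene divided by its length in kilobases and by the size of the library. Whole reads could be recovered from them, and these summed to between 4009403 (WT DMSO replicate 3) and 26450566 (WT cordycepin+EGF replicate 2) on listed genes. EGR1, an immediate early gene, rose after EGF by 6.16 on the log2 scale in WT and by 5.28 in AMPK KO cells. PRKAA1 was lower in AMPK KO cells in DMSO (log2 fold change -1.26, SE 0.17), but both targeted transcripts were still detected, PRKAA1 at 7.03 RPKM or more and PRKAA2 at 5.39 RPKM or more in every library. Of the 7 markers of the line, VIM, NEFL, KRT18 and KRT8 averaged above 10 RPKM, LHX1, PAX2 and NEFM averaged below 1 RPKM, and of the 4 markers of other cell types PTPRC had a row, with a mean of 0.0253 RPKM. WT DMSO replicate 2 and WT cordycepin+EGF replicate 2 stood apart from the other 10 libraries at copies of small RNA genes (below). Results for the members that rest on them are also given without them, or as a range with single libraries left out.

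NEAT1 spans chr11:65422774-65445540 on the + strand of hg38 and is annotated as a lncRNA with 22767 exonic bases. Its short and long forms share that single row and cannot be told apart here, so its values may hold tailed as well as untailed RNA. NEAT1 was an abundant RNA, with a mean of 27.7 RPKM that ranked 1477 of the 26058 genes and with 1577 to 35954 reads per library. In WT cells it stood at 41.3 and 17.2 RPKM in DMSO, 62.3 and 38.3 RPKM in DMSO+EGF, and 22.2 and 23.0 RPKM in cordycepin+EGF, for replicates 2 and 3 in that order. In AMPK KO cells it stood at 17.5 and 17.3 RPKM in DMSO, 15.9 and 15.5 RPKM in DMSO+EGF, and 31.9 and 30.2 RPKM in cordycepin+EGF. The highest 3 of these 12 values came from WT cells without cordycepin. The AMPK KO replicates lay within 1.06-fold of each other in every group, and the WT replicates within 1.03-fold in cordycepin+EGF, but they differed 2.40-fold in WT DMSO and 1.63-fold in WT DMSO+EGF. WT DMSO replicate 3, the lower of its pair, was also the shallowest library.

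**Figure D1:**
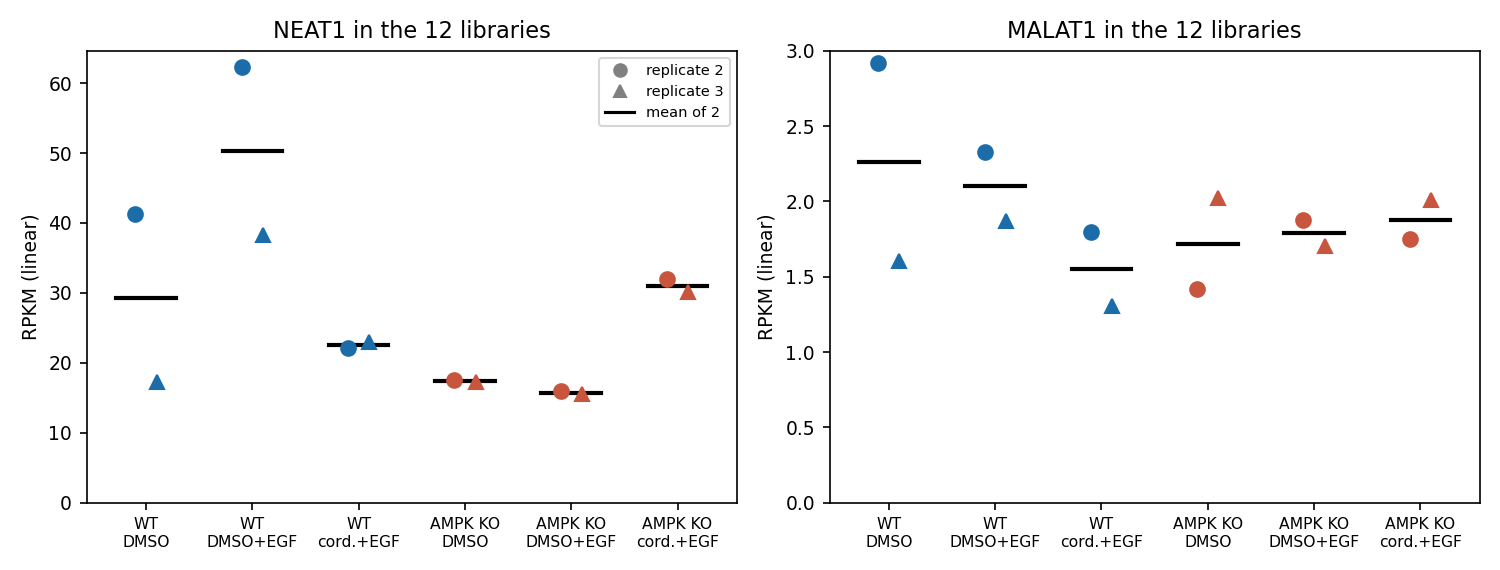
RPKM of NEAT1 (left) and MALAT1 (right) on linear axes from 0, for the 6 groups; points are the libraries (circles replicate 2, triangles replicate 3, WT blue, AMPK KO red) and bars the means of 2. NEAT1 in cordycepin+EGF lay below both WT DMSO+EGF libraries in WT cells and above both DMSO+EGF libraries in AMPK KO cells, while the MALAT1 groups had means between 1.55 and 2.26 RPKM.

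Ordered by mean RPKM, NEAT1 was highest in WT DMSO+EGF (50.3 ± 17.0, SD, n = 2), followed by AMPK KO cordycepin+EGF (31.1 ± 1.25), WT DMSO (29.2 ± 17.0), WT cordycepin+EGF (22.6 ± 0.545), AMPK KO DMSO (17.4 ± 0.179) and AMPK KO DMSO+EGF (15.7 ± 0.287). The libraries of WT DMSO overlapped those of both its neighbours in this order. The libraries of the other neighbouring groups did not overlap. The smallest of these gaps, between AMPK KO DMSO and AMPK KO DMSO+EGF, was within the error of the fit described next.

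The effect of cordycepin on NEAT1 went in opposite directions in the 2 lines. All comparisons used limma on log2(RPKM scaled to the upper quartile of each library + 0.5), fitted over all 12 libraries and 22067 genes with a mean of at least 0.5 RPKM, and a gene counted as called at a Benjamini-Hochberg adjusted p under 0.05. In EGF-stimulated WT cells, NEAT1 was 2.08-fold lower with cordycepin (log2 fold change -1.05, SE 0.35, 95% interval -1.85 to -0.26), and its libraries did not overlap. Without WT cordycepin+EGF replicate 2 the value was -1.04 (limma adjusted p = 0.384), and single libraries left out moved it between -0.69 (WT DMSO+EGF replicate 2) and -1.41 (WT DMSO+EGF replicate 3). The adjusted p was 0.267 (unadjusted 0.0151), so that 0 of the 2 RNAs were called, where 0.00453% of all genes were called and 16.0% had an unadjusted p under 0.05. Gene by gene, 27.8% of all genes had libraries that were lower with cordycepin without overlap in WT cells, so the separation alone was common.

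In EGF-stimulated AMPK KO cells, NEAT1 was 2.01-fold higher with cordycepin (log2 fold change 1.01, SE 0.35, 95% interval 0.21 to 1.80), again without overlap, as were 29.2% of all genes in that direction. The limma adjusted p was 0.155 (unadjusted 0.0189), and 0 of the 2 RNAs were called beside 0.471% of all genes (21.8% at an unadjusted p under 0.05). The difference between the effects in the 2 lines had a log2 value of 2.06 (SE 0.50, 95% interval 0.93 to 3.18), which ranked 170 of 22067 genes by size. Its adjusted p was 0.122 (limma, unadjusted 0.00254), and 0 of the 2 RNAs were called, as was the case for all genes (0.0%), although 21.4% had an unadjusted p under 0.05. In both lines together, 10.0% of genes moved as NEAT1 did, lower in WT and higher in AMPK KO without overlap. Averaged over both lines, the cordycepin effect on NEAT1 was -0.02 (SE 0.25), with 0 of the 2 RNAs called and 0.965% of all genes. MALAT1 had an unadjusted p above 0.05 in each of these 4 comparisons.

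Whether the cordycepin effect on NEAT1 passed the threshold depended on the model. With voom, a weighted limma fit to the recovered reads, NEAT1 was called in WT cells (adjusted p = 0.0466, 3.58% of genes called), in AMPK KO cells (0.0497, 5.37%) and for the difference between lines (0.0102, 9.82%). The difference between lines was also called with library weights (adjusted p = 0.0315, 6.6% of genes called by limma) and with the 4 compared groups alone in the limma fit (0.0381, 5.11%). Over the 12 alternatives other than left-out libraries, its limma or voom adjusted p ranged from 0.0102 to 0.139. Without WT DMSO replicate 2 and WT cordycepin+EGF replicate 2, the log2 difference was 2.05 and its limma adjusted p was 0.0306 (7.02% of genes called), while the direction stayed the same without any single library (1.70 to 2.42).

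**Figure D2:**
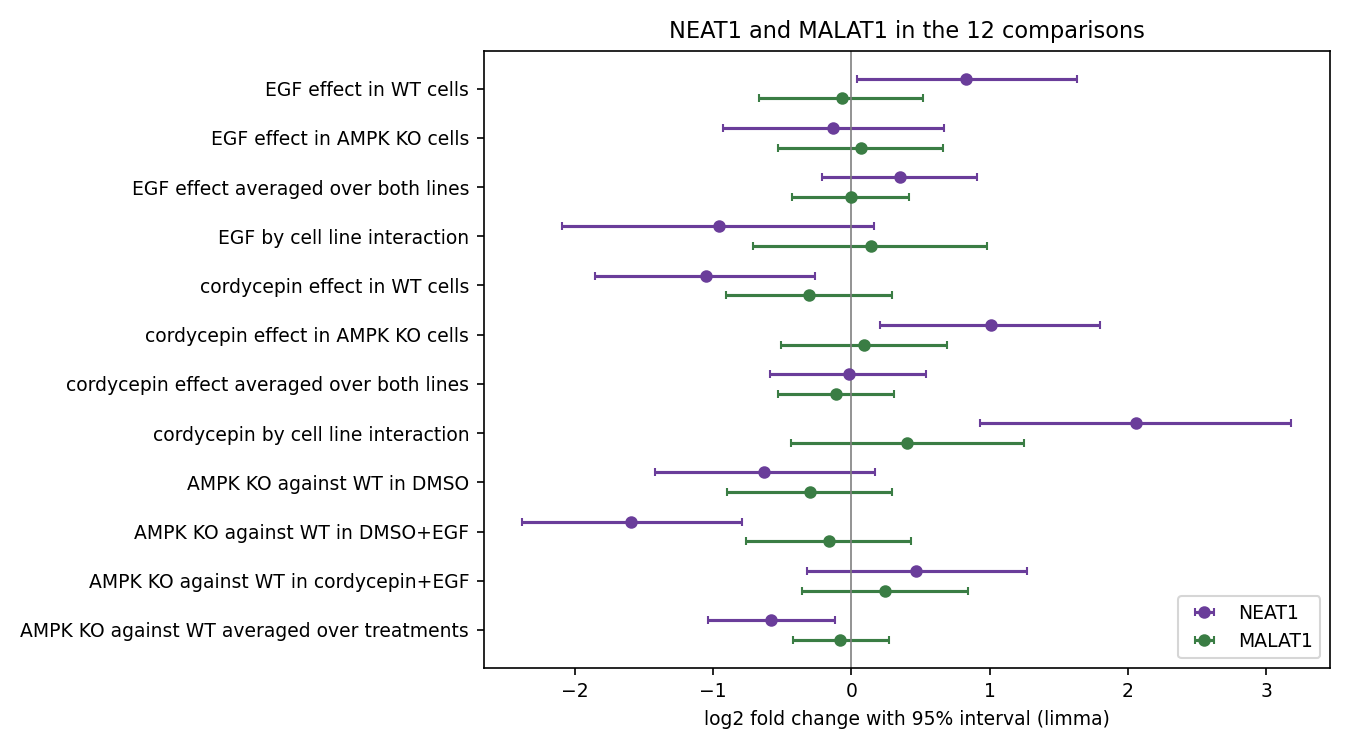
Log2 fold changes of NEAT1 (purple) and MALAT1 (green) in the 12 comparisons, with 95% intervals from limma on 12 libraries as bars. NEAT1 was at -1.05 and 1.01 for cordycepin in WT and AMPK KO cells and at -1.59 for AMPK KO against WT in DMSO+EGF, and each MALAT1 interval included 0.

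The largest NEAT1 difference between the lines was seen after EGF alone. In DMSO+EGF, NEAT1 was 3.00-fold lower in AMPK KO than in WT cells (log2 fold change -1.59, SE 0.35, 95% interval -2.38 to -0.79), with both AMPK KO libraries below both WT libraries, as for 32.8% of genes. The limma adjusted p was 0.0567 (unadjusted 0.00147), so 0 of the 2 RNAs were called, where 1.74% of all genes were called and 22.5% had an unadjusted p under 0.05. By size this difference ranked 130 of 22067. NEAT1 was called in this comparison with the 2 groups alone in the fit (adjusted p = 0.0387, 10.0% of genes called by limma), with a block for replicate number in each line (0.0492, 1.05%), with library weights (0.00324, 22.8%) and with voom (0.00368, 11.8%). In the remaining alternatives the limma adjusted p was up to 0.0694, and it ran from 0.161 to 0.305 when any of the 4 libraries was left out.

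In DMSO without EGF, the AMPK KO libraries of NEAT1 lay close to WT replicate 3 and far below WT replicate 2 (log2 fold change -0.63, SE 0.35, limma adjusted p = 0.329). Of the 2 RNAs, 0 were called, beside 0.44% of all genes. The log2 difference was -1.25 without WT DMSO replicate 3, at which NEAT1 was called (limma adjusted p = 0.0199, 13.9% of genes called), and -0.0012 without replicate 2 (adjusted p = 1.0). In cordycepin+EGF the order was turned, and both AMPK KO libraries were above both WT libraries, as for 22.4% of genes (log2 fold change 0.47, SE 0.35, limma adjusted p = 0.555). Without WT cordycepin+EGF replicate 2 the value was 0.46. Here again 0 of the 2 RNAs were called, beside 0.118% of all genes.

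Averaged over the 3 treatments, NEAT1 was lower in AMPK KO cells by a log2 value of -0.58 (SE 0.20, 95% interval -1.04 to -0.12, limma adjusted p = 0.151). Neither of the 2 RNAs was called, where 4.34% of all genes were (20.4% at an unadjusted p under 0.05). NEAT1 was called with voom (adjusted p = 0.0259, 10.6% of genes called) and without WT DMSO replicate 3 (log2 value -0.79, limma adjusted p = 0.00995, 13.1%). The value was -0.37 without WT DMSO replicate 2 (adjusted p = 0.135) and -0.38 without that library and WT cordycepin+EGF replicate 2 together (0.198), and the highest limma adjusted p with 1 library left out was 0.324. An exact two-sided permutation test of the same mean difference, with the line labels exchanged within each treatment, gave p = 0.157 over 216 arrangements, of which the smallest p possible was 0.00926.

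EGF raised the mean of NEAT1 in WT cells, but the groups overlapped. NEAT1 in DMSO+EGF was 1.78-fold the level in DMSO (log2 fold change 0.83, SE 0.35, 95% interval 0.04 to 1.63, limma adjusted p = 0.509, unadjusted 0.0424), and WT DMSO replicate 2 lay above WT DMSO+EGF replicate 3. Of the 2 RNAs 0 were called, beside 0.0227% of all genes (9.72% at an unadjusted p under 0.05). Without WT DMSO replicate 2 the log2 fold change was 1.46, and NEAT1 was called (limma adjusted p = 0.0326, 3.18% of genes called). It was also called without that library and WT cordycepin+EGF replicate 2 together (0.0473, 1.98%). The value was 0.21 without WT DMSO replicate 3 (limma adjusted p = 0.79), 0.47 without WT DMSO+EGF replicate 2 and 1.19 without WT DMSO+EGF replicate 3 (0.854 in both), so its size rested on single libraries. Among libraries of the same number NEAT1 was higher after EGF in both, and with a replicate block in each line the adjusted p was 0.433. In AMPK KO cells NEAT1 was lower after EGF without overlap, as for 19.3% of genes, but by a log2 value of only -0.13 (SE 0.35, 95% interval -0.93 to 0.67), and 0 of the 2 RNAs were called beside 0.0136% of all genes. The EGF effects in the 2 lines differed by -0.96 (SE 0.50, limma adjusted p = 0.606), with 0 of the 2 RNAs called beside 0.0% of all genes. Averaged over both lines the effect was 0.35 (SE 0.25), with 0 of the 2 called beside 0.0227%. WT DMSO set both of these values: the difference between lines was -1.59 without its replicate 2 and -0.34 without its replicate 3, and the average was 0.66 and 0.038.

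Over all 12 comparisons, limma thus called NEAT1 in 0 and MALAT1 in 0. At an unadjusted p under 0.05 the numbers were 6 for NEAT1 and 0 for MALAT1, and voom called NEAT1 in 5 and MALAT1 in 0. In those 6 comparisons, 9.72% to 22.5% of all genes had an unadjusted limma p under 0.05. In those 5, voom called 3.58% to 11.8% of all genes. The comparisons share groups, so the counts are not separate results.

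MALAT1 lies downstream of NEAT1, at chr11:65497640-65508073 on the + strand of hg38. It was listed at a low level, with a mean of 1.88 RPKM that ranked 14998 of 26058 genes and with 57 to 521 reads per library. In WT cells it stood at 2.92 and 1.60 RPKM in DMSO, 2.33 and 1.87 RPKM in DMSO+EGF, and 1.80 and 1.31 RPKM in cordycepin+EGF, for replicates 2 and 3. In AMPK KO cells it stood at 1.42 and 2.02 RPKM in DMSO, 1.88 and 1.71 RPKM in DMSO+EGF, and 1.75 and 2.01 RPKM in cordycepin+EGF. The highest value came from WT DMSO replicate 2 and the lowest from WT cordycepin+EGF replicate 3. The 57 reads of WT DMSO replicate 3 had an exact 95% Poisson interval of 43.2 to 73.9, which covers counting error only.

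By mean RPKM the order for MALAT1 was WT DMSO (2.26 ± 0.931, SD, n = 2), WT DMSO+EGF (2.10 ± 0.321), AMPK KO cordycepin+EGF (1.88 ± 0.186), AMPK KO DMSO+EGF (1.79 ± 0.120), AMPK KO DMSO (1.72 ± 0.424) and WT cordycepin+EGF (1.55 ± 0.346). All neighbours in this order overlapped. With cordycepin, MALAT1 in WT cells was lower without overlap, by a log2 value of -0.31 (SE 0.26, 95% interval -0.91 to 0.29, limma adjusted p = 0.562), a separation seen in 27.8% of all genes. In AMPK KO cells the value was 0.09 (SE 0.26, 95% interval -0.51 to 0.69). EGF gave -0.07 (SE 0.26, 95% interval -0.67 to 0.52) in WT and 0.07 (SE 0.26, 95% interval -0.53 to 0.66) in AMPK KO cells. AMPK KO against WT gave -0.30 in DMSO, -0.16 in DMSO+EGF and 0.24 in cordycepin+EGF, each with an SE of 0.26, and -0.08 (SE 0.15) on average, for which the exact permutation test gave p = 0.667 over 216 arrangements. With single libraries left out, the cordycepin effect on MALAT1 ran from -0.5 to -0.13 in WT cells and from -0.2 to -0.02 averaged over both lines. The difference in that effect between lines ran from 0.22 to 0.59, and AMPK KO against WT in cordycepin+EGF from 0.05 to 0.42. Changes within the 95% intervals were not detectable for MALAT1 with 2 libraries a group.

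The low level of MALAT1 stood beside its overlap with another annotated gene. The antisense RNA TALAM1 (ENSG00000289740) runs on the - strand at chr11:65499312-65507432, and together with ENSG00000270117 its exons cover 8731 of the 10434 exonic bases of MALAT1 (83.7%). For NEAT1 the corresponding figure is 0 bases. TALAM1 was listed with 1 to 23 reads per library, at a mean of 0.0659 RPKM. The MALAT1 values were whole reads at a length of 8829 bases, the single length between 1000 and 15000 bases at which each of the 12 values came within 0.05 of a whole read. That length differs from the 10434 bases of GENCODE release 44, so the annotation used for counting may not have been that release.

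**Figure D3:**
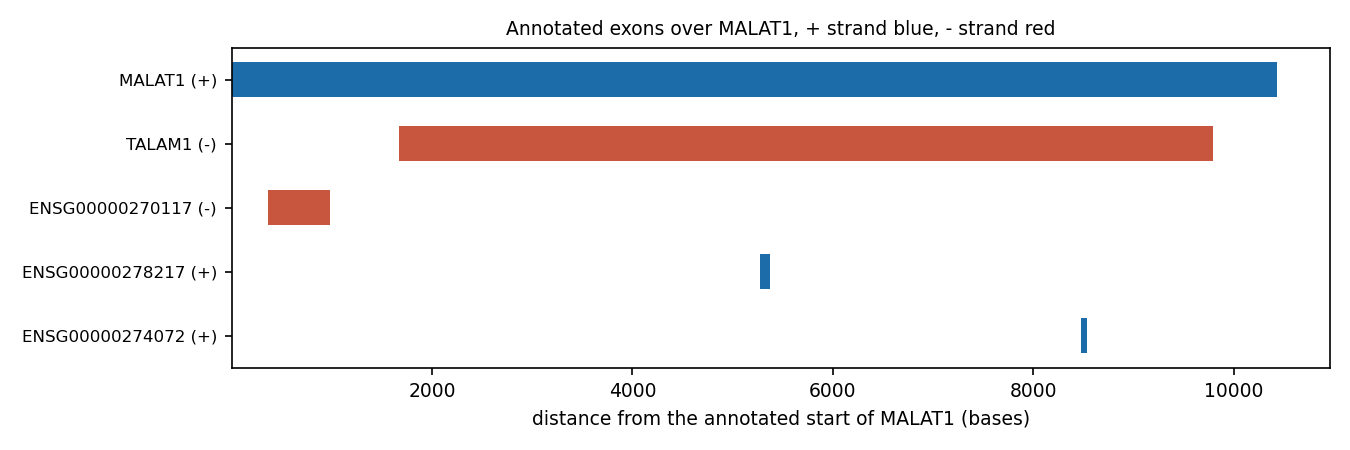
Annotated exons (GENCODE release 44) over MALAT1, drawn to scale by distance from its annotated start in bases, + strand blue and - strand red. TALAM1, at bases 1673 to 9793, covers most of the 10434 bases of MALAT1 on the other strand.

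Across the annotation, the share of genes with a row in the table varied with overlap, and not in one direction. Of 1002 genes with over 95% of their exonic bases overlapped by opposite-strand exons, 1.50% had a row, compared with 35.4% of the 48044 genes without such overlap, 69.0% of those with up to 50% overlapped and 42.6% of those with over 50% to 80%. In the class of MALAT1, over 80% to 95% overlapped on the opposite strand, 14.6% of 288 genes had a row, with a median of 0.881 RPKM. The libraries were prepared with a stranded kit, and the strand setting of the counting was not given in the sources used here. Its part in the level of MALAT1 was not tested, and reads of MALAT1 and TALAM1 cannot be told apart if strand was not used.

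**Figure D4:**
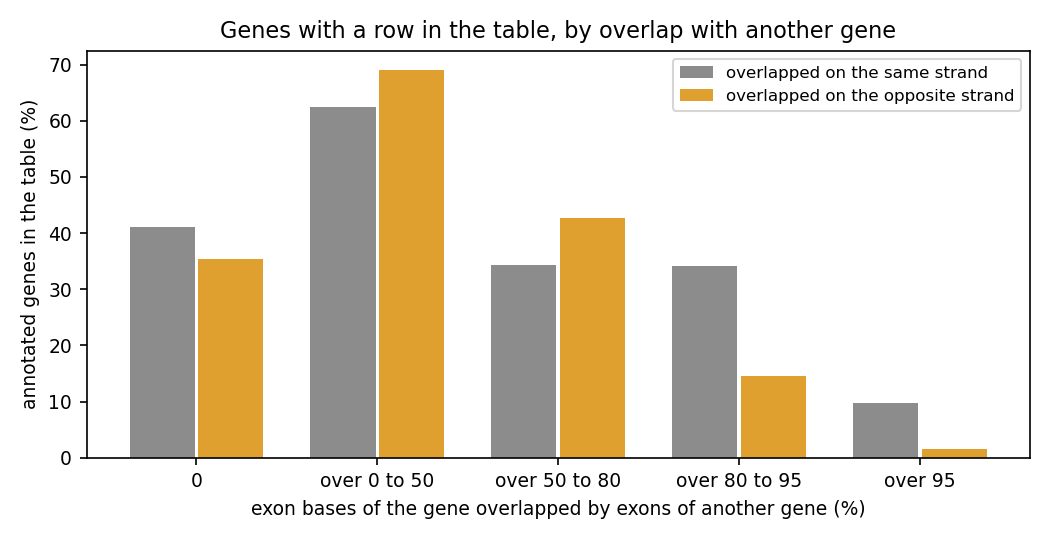
Share of the genes annotated in GENCODE release 44 that have a row in the table (%), by the share of their exonic bases overlapped by exons of another gene on the same strand (grey) or the opposite strand (orange). The share is highest at up to 50% overlap (62.4% and 69.0%) and lowest at over 95% (9.71% and 1.50%).

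Of the RNAs with no row, 3 are largely covered by a second annotated gene on the same strand. All 328 bases of RN7SK (chr6:52995621-52995948, + strand), all 333 bases of RPPH1 (chr14:20343075-20343407, - strand) and 438 of the 541 bases of TERC (chr3:169764520-169765060, - strand) are overlapped in this way. RMRP (264 bases, chr9:35657754-35658017, - strand) has no such overlap. Among the 2111 genes with over 95% overlap on the same strand, 9.71% had a row, compared with 41.1% of the 54221 genes without overlap. TERC falls in the class of over 80% to 95%, of which 34.2% had a row. These shares are a description and were not tested. The levels of the 4 RNAs are not known here, and no statement on their response to cordycepin or EGF can be made.

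RN7SK has many copies elsewhere in the genome, and 32 of these, named RN7SKP, had a row. They were examined after their values were seen. Their mean levels summed to 1577 RPKM, of which 1479 RPKM came from 5 copies, RN7SKP203, RN7SKP80, RN7SKP71, RN7SKP230 and RN7SKP255. These are the copies with the longest stretches identical to RN7SK, at 143, 128, 145, 77 and 103 bases, while the others shared at most 59. The gene and RN7SKP80, the one of these 5 copies with the widest range of RPKM, are shown over the same 168 bases, with the shared stretch of 128 bases in capitals, RN7SK at chr6:52995734-52995901 (+ strand) and RN7SKP80 at chr22:42565050-42565217 (- strand) of hg38.
RN7SK: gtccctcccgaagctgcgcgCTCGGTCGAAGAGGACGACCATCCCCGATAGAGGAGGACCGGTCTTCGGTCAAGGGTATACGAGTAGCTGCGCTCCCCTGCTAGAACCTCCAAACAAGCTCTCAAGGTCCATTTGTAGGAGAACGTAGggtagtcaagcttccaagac
RN7SKP80: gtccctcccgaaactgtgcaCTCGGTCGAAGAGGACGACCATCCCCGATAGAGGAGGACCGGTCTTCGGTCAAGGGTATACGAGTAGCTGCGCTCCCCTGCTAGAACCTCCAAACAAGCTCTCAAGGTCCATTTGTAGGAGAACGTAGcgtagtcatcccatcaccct
Bases within such a stretch do not tell the gene and the copy apart, so a read is assigned only by bases outside it. The paper gives paired reads, each longer than any of these stretches. How reads were divided among the copies was not tested, so the values of the copies are uncertain.

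RN7SKP80 stood at 2151 RPKM in WT DMSO replicate 2 and 1588 RPKM in WT cordycepin+EGF replicate 2, and between 59.1 and 178 RPKM in the other 10 libraries. RN7SKP203 did not share that pattern, at 393 and 551 RPKM in those libraries and 336 to 769 RPKM in the others. The same 2 libraries stood apart at copies of the U1 spliceosomal RNA. RNU1-1 was at 46.6 and 49.7 RPKM there and at 2.58 to 10.6 RPKM elsewhere, whereas RNVU1-7 was at 10.4 and 4.86 RPKM there and at 28.8 to 85.1 RPKM elsewhere. The 2 libraries belong to different groups of WT cells, and limma gave RN7SKP80 an adjusted p of 0.338 for AMPK KO against WT on average. NEAT1, at 41.3 and 22.2 RPKM in these libraries, was above its other replicate in the first and within 1.03-fold of it in the second.

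**Figure D5:**
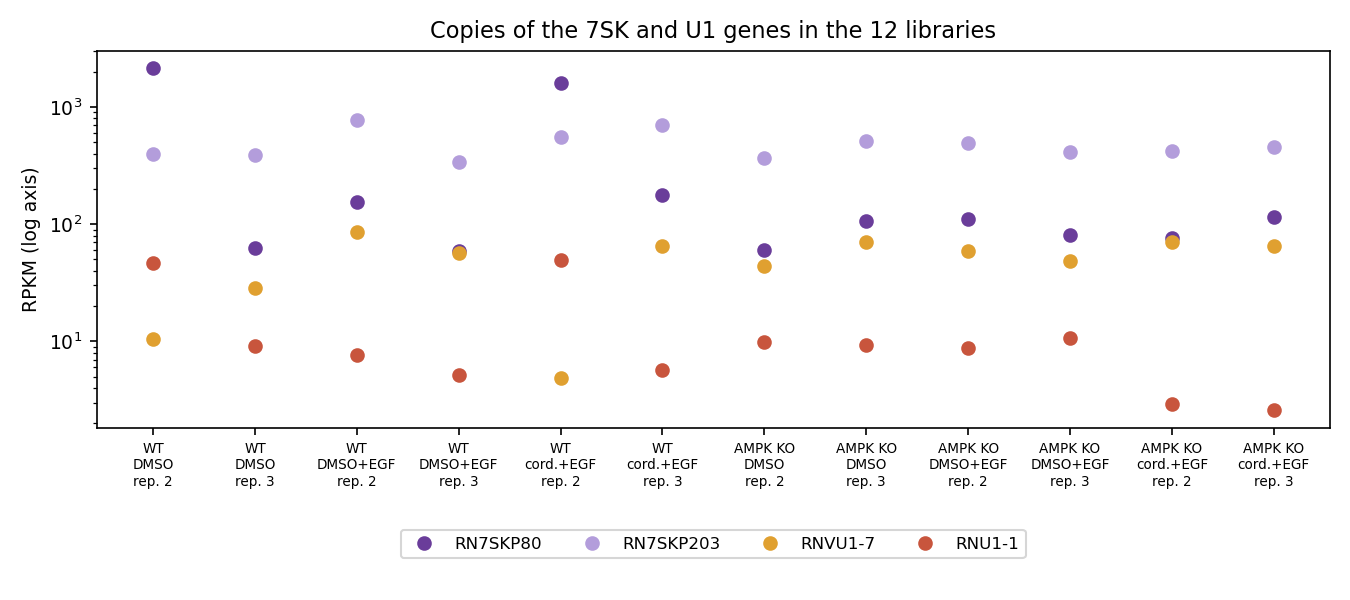
RPKM on a log axis of 2 copies of RN7SK (RN7SKP80, RN7SKP203) and 2 U1 genes (RNVU1-7, RNU1-1) in each of the 12 libraries. In WT DMSO replicate 2 and WT cordycepin+EGF replicate 2, RN7SKP80 and RNU1-1 lie above and RNVU1-7 below all other libraries.

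Per length, the listed value of NEAT1 was 8.50 to 26.8 times that of MALAT1 within a library. The overlap of MALAT1, the unknown strand setting and the length behind its values leave its level uncertain. The ratio therefore describes the listed values only. The ratio was 26.8 and 20.4 in WT DMSO+EGF and 8.50 and 9.10 in AMPK KO DMSO+EGF, the groups with the highest and lowest NEAT1. Over the 12 libraries, Pearson's r between the log2 values of the 2 RNAs was 0.61. These points share cell lines and treatments, and the value is a description.

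The genes most like NEAT1 over the 12 libraries, among those with a mean of at least 5 RPKM, were CELSR1, a seven-pass cadherin (r = 0.948), UCKL1, a uridine-cytidine kinase-like protein (r = 0.947), and MARVELD1 (r = 0.946). MARVELD1 averaged 13.8 RPKM in WT DMSO+EGF, 5.19 in WT cordycepin+EGF, 4.19 in AMPK KO DMSO+EGF and 8.19 in AMPK KO cordycepin+EGF. Of the 9083 genes compared, 61 had an r above 0.9 with NEAT1, and 152 had an r below -0.9, which is the opposite profile. For MALAT1 the closest were PPP1R9A, an actin-binding scaffold of neurons (r = 0.904), ENSG00000249678 (r = 0.897) and MAGT1, a magnesium transporter (r = 0.869). A single gene of 9084 passed 0.9 with MALAT1.

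Transcripts of the proteins that build paraspeckles on NEAT1 gave no call by limma. Few genes were called by limma at all, 0.0% to 4.34% of all genes per comparison, so 0 calls on a short list says little about its proteins. Of 18 symbols, 17 rows were tested and 0 were called by limma in any of the 12 comparisons (0 to 4 at an unadjusted p under 0.05), and voom on the recovered reads called 0 to 1. Voom called SFPQ lower with cordycepin in WT cells (log2 fold change -0.55, adjusted p = 0.0467) and NUDT21 lower in AMPK KO cells (-0.51, 0.0489). It called 3.58% and 5.37% of all genes there. MATR3 was called lower in AMPK KO than WT cells in DMSO (-0.78, voom adjusted p = 0.0481). With cordycepin the median log2 fold change of the list was -0.19 in WT and -0.12 in AMPK KO cells, beside 0.03 and 0.06 over all genes. By limma, 2 and 1 of its genes had an unadjusted p under 0.05, beside 16.0% and 21.8% of all genes. The most abundant, HNRNPH1 and HNRNPK, averaged 83.8 and 78.8 RPKM, and cordycepin gave them -0.12 and -0.42 in WT and -0.21 and -0.21 in AMPK KO cells, on the log2 scale. For AMPK KO against WT in DMSO+EGF, where NEAT1 was at -1.59, the list had a median of -0.03. Among the 11 speckle and MALAT1 end-processing proteins tested, 0 were called by limma in any comparison (0 to 2 at an unadjusted p under 0.05) and 0 to 1 by voom, with SRRM2 and SON the most abundant at 141 and 81.6 RPKM.

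Transcripts of the proteins that work with the RNAs without a row gave a few calls. For AMPK KO against WT, limma called 1.74% of all genes in DMSO+EGF and 4.34% on average, and voom 11.8% and 10.6%. For cordycepin, voom called 5.37% of all genes in AMPK KO cells and 9.82% for the difference between lines. CCNT1, a cyclin of P-TEFb and the sole limma call among 7 proteins of the 7SK particle, was higher in AMPK KO than WT cells in DMSO+EGF (log2 fold change 0.64, SE 0.12, limma adjusted p = 0.0475). Voom made 5 calls on this list, for CCNT1 and HEXIM1, the inhibitor of P-TEFb that binds 7SK. RPP25, a subunit of RNase P and RNase MRP and 1 of 11 tested, was lower in that comparison (log2 fold change -1.36, SE 0.27, limma adjusted p = 0.0476) and averaged over treatments (-0.85, SE 0.15, adjusted p = 0.0193). It averaged 1.03 RPKM, a low level, and was the single gene of that list called by voom. Of 11 telomerase and H/ACA proteins tested, 0 were called by limma in any comparison (0 to 1 at an unadjusted p under 0.05) and 0 by voom, with NHP2 and NOP10 the most abundant at 45.6 and 29.7 RPKM.

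Among 11 factors of the RNA polymerase III promoters that drive RN7SK, RMRP and RPPH1, TBP, the TATA-binding protein, was higher in AMPK KO cells in DMSO+EGF (log2 fold change 0.95, SE 0.18, limma adjusted p = 0.0416) and on average (0.58, SE 0.10, adjusted p = 0.0177). SNAPC5, a subunit of the snRNA-activating complex, was higher with cordycepin averaged over both lines (0.70, SE 0.10, limma adjusted p = 0.0227) and in AMPK KO cells on average (0.47, SE 0.08, adjusted p = 0.0169). Limma made these 4 calls on the list, and voom made 9, on TBP, SNAPC5, SNAPC3 and SNAPC4. For AMPK KO against WT, limma called 1.74% of all genes in DMSO+EGF and 4.34% on average. For cordycepin averaged over both lines it called 0.965%. Voom called 3.58% to 11.8% of all genes in the comparisons whose voom share is given above. Some voom calls on this list fell in other comparisons, whose voom share is not given here, so the number of voom calls cannot be weighed. Of 11 genomic neighbours of the 6 genes tested, PARP2, next to RPPH1, was lower in AMPK KO cells on average (log2 fold change -0.33, SE 0.07, limma adjusted p = 0.0313). That was the sole limma call, and voom made 6, on PARP2, CCNB1IP1, ACTRT3 and LRRC34. Here too, some voom calls fell in comparisons whose voom share over all genes is not given.

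Untailed small RNAs, and tailed lncRNAs, were measured beside NEAT1 and MALAT1. Of 28 untailed small RNAs with a row, RNU6-2, a U6 copy, fell with cordycepin in AMPK KO cells (log2 fold change -1.52, SE 0.24, limma adjusted p = 0.0467), from 17.6 ± 1.89 to 5.66 ± 1.02 RPKM (SD, n = 2). RNU5F-1, a U5 copy, fell averaged over both lines (-1.34, SE 0.20, limma adjusted p = 0.0252), from 25.4 ± 7.37 to 8.50 ± 1.54 RPKM in WT cells. Voom called RNU5F-1 averaged over both lines (adjusted p = 0.0318) but not RNU6-2, and made 11 calls on 5 genes of the list in all. With cordycepin in WT cells, voom called RN7SL3 higher (log2 fold change 1.22, adjusted p = 0.0486) and RNU5F-1 lower (-1.49, 0.0437). The cordycepin effect on RN7SL3 differed between the lines by -2.27 (voom adjusted p = 0.0112). For cordycepin, limma called 0.471% of all genes in AMPK KO cells and 0.965% averaged over both lines. Voom called 3.58% to 11.8% of all genes in the comparisons whose voom share is given above. Some voom calls on these small RNAs, RNU5F-1 averaged over both lines among them, fell in other comparisons. The voom share of those is not given here, so the number of voom calls cannot be weighed. RNU6-2 and RNU5F-1 have near-identical copies and are uncertain for that reason. The median cordycepin effect of the list was 0.18 in WT and -0.06 in AMPK KO cells.

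Among 28 tailed lncRNAs tested, 0 were called by limma in any comparison (0 to 7 at an unadjusted p under 0.05) and 0 to 5 by voom, and with cordycepin the median was 0.04 in WT (2 with an unadjusted p under 0.05) and 0.15 in AMPK KO cells (7), beside 16.0% and 21.8% of all genes under that unadjusted p. The 5 voom calls were for cordycepin in AMPK KO cells, where voom called 5.37% of all genes. They were SNHG3, SNHG12, LINC00467, DANCR and ZFAS1, each higher. In WT cells, where voom called 3.58% of all genes, SNHG5 was called higher and MIR17HG lower with cordycepin. In all, voom made 15 calls on 9 genes of this list, some in comparisons whose voom share is not given here. NORAD and SNHG3, the most abundant, averaged 73.4 and 40.5 RPKM. The cordycepin effect in AMPK KO cells was -0.58 for NORAD (limma adjusted p = 0.144) and 0.57 for SNHG3 (0.0913), beside 1.01 for NEAT1.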

How the data were processed

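The authors sequenced paired reads of stranded, ribo-depleted libraries, mapped them to GRCh38.p13 and counted them with Rsubread. The version and strand setting were not given in the sources used here. They deposited RPKM, a read count scaled to library size and gene length, for 26058 Ensembl genes. The table also held 2 rows without a gene name, which were not used. GENCODE release 44 gave symbols to 26029 genes, exon overlap and positions, and sequences were read from hg38 by coordinate.

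RPKM values were divided by the upper quartile of each library, rescaled and analysed as log2(value + 0.5), so fold changes of low genes are understated. The 22067 genes whose RPKM averaged 0.5 or more were fitted with limma 3.58.1 in R 4.3.3 (eBayes with trend) over 12 libraries in 6 groups, with Benjamini-Hochberg adjustment per comparison over all genes tested. The script was tested on simulated data. Reads were recovered by finding, per library, the value of 1 read: 96.25% of genes gave whole reads in all 12 libraries at the annotated length, and 99.29% after a search for the length. Exact permutation tests used Python 3.11.15.

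The members and gene lists were chosen with earlier results of these data known. Named were the members, up to 4 called genes per list and comparison (otherwise the 2 most abundant), the 3 genes most correlated with each member, and checks. Alternatives were pseudocounts of 0.1 and 1, other filters, unscaled or median-ratio scaled RPKM, the compared groups alone, blocks for replicate number, limma without trend, library weights, voom on recovered reads and each library left out. Leaving out both libraries that stood apart was added after seeing the data and left a single library in each of their groups. Depth was 4009403 to 26450566 reads.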

Additional observations from a re-analysis of the deposited data

Results flagged for a closer look

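The cordycepin effect on NEAT1 differed between the lines by a log2 value of 2.06 (SE 0.50). Both cordycepin+EGF libraries were below both DMSO+EGF libraries in WT cells and above both in AMPK KO cells, as for 10.0% of genes. By the limma interaction term the adjusted p was 0.122 (unadjusted 0.00254), ranging from 0.0102 to 0.139 over 12 alternatives and from 0.160 to 0.349 when a single library was left out.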

How the results depend on the processing

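The number of RNAs called was 0 of 2 in each of the 12 comparisons. It became 1 of 2 (NEAT1 each time) with voom for cordycepin in WT, in AMPK KO and between lines, and for AMPK KO against WT in DMSO+EGF and on average. It was 1 for the cordycepin difference between lines with the compared groups alone, with library weights and without both libraries that stood apart. The same held for AMPK KO against WT in DMSO+EGF with the compared groups alone, library weights or the replicate block in each line, and for EGF in WT cells without both libraries. With single libraries left out it ranged from 0 to 1 for EGF in WT cells and for AMPK KO against WT in DMSO and on average, and was 0 in the other 9 comparisons. The cause was not tested. MALAT1 changed sign around 0. Its EGF effect ranged from -0.43 to 0.28 in WT, -0.12 to 0.25 in AMPK KO cells, -0.18 to 0.17 averaged and -0.22 to 0.49 between lines when single libraries were left out (0.061 without WT DMSO+EGF replicate 3). AMPK KO against WT for MALAT1 ranged from -0.66 to 0.052 in DMSO and -0.19 to 0.042 on average. Without both libraries that stood apart these MALAT1 values were 0.28 for EGF in WT cells, 0.17 averaged, -0.22 between lines, 0.052 for AMPK KO in DMSO and 0.10 on average. The averaged EGF effect on MALAT1 was 0.0016 with a pseudocount of 0.1 and 0.0033 with unscaled RPKM. The averaged cordycepin effect on NEAT1 ranged from -0.20 to 0.16 when single libraries were left out. The permutation tests kept their direction and side under 4 alternatives. Libraries with the same replicate number deviated together (r over 0.1) in 6 of 15 pairs of groups (-0.122 to 0.322), in 3 of 3 within WT (0.136 to 0.314) and 0 of 3 within AMPK KO cells, and the labels tie no number to a shared culture or day, so no block was used in the comparisons as reported. A replicate block over all libraries gave NEAT1 an adjusted p of 0.0504 in AMPK KO against WT in DMSO+EGF and changed no call, and the block in each line gave 0.0492. WT DMSO replicate 3 had 4009403 reads and limits the DMSO comparisons.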

Other observations

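Among the 66 pairs of libraries, WT DMSO replicate 2 and WT cordycepin+EGF replicate 2 had the most genes (13, with a mean of at least 5 RPKM) that were over 3-fold above or below all other 10 libraries, and the pair with the next most had 2. Of these 13 genes, 11 were above and 2 below. All 13 were multi-copy sequences: copies of 7SK (RN7SKP80, RN7SKP185, RN7SKP227 and ENSG00000271394), U1 genes (RNU1-1 and RNU1-4 above, RNVU1-18 and RNVU1-29 below) and processed pseudogenes, MTATP8P2, MTND4P12 and MTCO1P40 among them. ENSG00000271394 stood at 423 and 478 RPKM in these libraries and at 3.02 to 6.71 RPKM in the others. RNVU1-29 stood at 4.66 and 5.50 RPKM there and at 84.4 to 214 RPKM elsewhere. This pair was chosen after its values were seen, and the cause was not tested.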
